A study of Mus musculus with 14 samples.

Results

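The genes described here are 10 ovulatory and cumulus expansion genes, taken by name from the 55414 genes of the count table: the epidermal growth factor (EGF) like ligands Areg, Ereg and Btc, their receptor Egfr, the transcription factors Pgr and Runx2, the prostaglandin synthase gene Ptgs2, and the matrix genes Has2, Tnfaip6 and Ptx3. They were read in granulosa cells (GCs), the somatic cells that line the ovarian follicle and surround the oocyte, to see where the follicles stood relative to the luteinizing hormone (LH) surge. RNA-seq was performed on 14 libraries of GCs of antral follicles from 12 wk old mice of 2 obesity models. There were 4 libraries of db/db mice (strain B6.BKS(D)-Leprdb/J, homozygous for a Lepr mutation that removes the long form of the leptin receptor) and 4 of their lean littermates (CT db). The second model gave 3 libraries of ob/ob mice (B6.Cg-Lepob/J, homozygous for a mutation of Lep, which encodes leptin) and 3 of lean littermates (CT ob). The labels give the controls as wild type, although the column names of the table read as heterozygous. Both mutations are present in every cell of the body, so that the GCs of a mutant also come from an obese animal, and each model has its own colony, which cannot be told apart from the model. Cells were released from ovaries by puncture, together with oocytes at the germinal vesicle stage. The methods name no hormone priming, and the stage of the oestrous cycle is not given in the sources used here.

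The LH surge acts on GCs of the preovulatory follicle through the LH receptor and cyclic AMP. GCs then make Areg, Ereg and Btc, which are shed from the cell surface and activate EGFR on GCs of the follicle wall and on the cumulus cells around the oocyte. The ERK cascade downstream of EGFR induces Ptgs2, Has2, Tnfaip6 and Ptx3, and the cumulus cells spread in a matrix of hyaluronan, while Pgr and Runx2 are induced mainly in the follicle wall. Most of these genes are known to be transcribed for hours only, at low levels before the surge and again after ovulation.

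Each library was made from about 50 cells by oligo-dT capture and full-length amplification, and sequenced as single reads of 75 bp without molecular identifiers. The total of counts per library lay between 3624237 and 4840714 in CT db, between 2204686 and 3059777 in db/db, between 3664219 and 4847166 in CT ob and between 5306632 and 8367593 in ob/ob. Values are given as reads and as CPM, which are counts scaled to a common library total after correction by the trimmed mean of M-values (TMM), and 3 reads, taken as the limit of detection, were 0.359 to 1.36 CPM. The TMM factor was 0.800 in CT ob library 3, which raises the CPM of that library, and 0.941 to 1.09 in the other libraries. Intervals and limits from counts cover counting error only. In RNA of pooled cells, fewer cells with a transcript and less transcript per cell cannot be told apart. The 8 granulosa cell markers (among them Foxl2, Fshr and Inha) had reads in every library, with summed levels of 5703 to 11495 CPM in CT db, 6352 to 11289 in db/db, 5447 to 9941 in CT ob and 7846 to 13729 in ob/ob. The 5 macrophage markers summed to at most 9.23 CPM in any library, in CT ob library 2. The 4 endothelial markers were also highest there (25.9 CPM), followed by CT ob library 1 (23.4 CPM), with at most 9.52 CPM in any other. The 4 theca markers summed to 334 CPM in db/db library 1 and to at most 98.997 CPM in any other. The 4 markers of stroma and smooth muscle, at 6.06 to 56.7 CPM, were highest in db/db library 1 too, followed by CT ob library 2 (54.9 CPM). Library 1 of db/db had the lowest Egfr and Btc of its group, and CT ob library 2 the lowest Egfr and highest Runx2 of its own. The part of other cells in these values was not tested. The 8 oocyte markers summed to 2.53 to 235 CPM in CT db, 5.11 to 61.0 in db/db, 59.0 to 1032 in CT ob and 120 to 679 in ob/ob, so that every ob/ob library lay above every db/db library. Lep had at most 3 reads and Lepr at most 17 reads in any library, and since neither mutation removes the gene, these reads check no label.

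Of the 10 genes, 7 had a mean below 1 CPM over the 14 libraries, namely Areg, Ereg, Pgr, Ptgs2, Has2, Tnfaip6 and Ptx3. These 7 genes had 138 reads together. Of their 98 values (7 genes in 14 libraries), 47 were 0, 41 were 1 to 3 reads and 10 were above 3 reads, with a highest value of 15. Egfr alone held 88.3% of the 5023 reads of the 10 genes. Most values of the 7 genes, which were picked here by their low mean, were thus at or below the limit of detection in all 4 groups. Egfr, Btc and Runx2 were read in all 14 libraries. Btc and Runx2, which the surge also induces, had more than 3 reads in 13 libraries each. Per kb of exon, which allows levels of different genes to be compared, the mean level over the libraries was 6.35 CPM per kb for Egfr, above 85% of the 34416 genes with a read. It was 0.909 for Btc (above 65.2% of these genes), 0.416 for Runx2 (56.9%), 0.346 for Tnfaip6 (54.7%) and 0.158 for Ptx3 (44.3%). Below these came Ptgs2 with 0.104 (38.1%), Has2 with 0.0874 (35.5%), Pgr with 0.0328 (20.7%), Areg with 0.0146 (10.1%) and Ereg with 0.0109 (7.42%). From Ptx3 downwards, neighbours in this order rest on 1 to 28 reads each, and their ranges over libraries overlapped. The percentages refer to every gene with at least 1 read in any library, many of them hardly read. A filter on low counts, described below, kept 12586 genes in the fit of all 14 libraries.

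**Figure D1:**
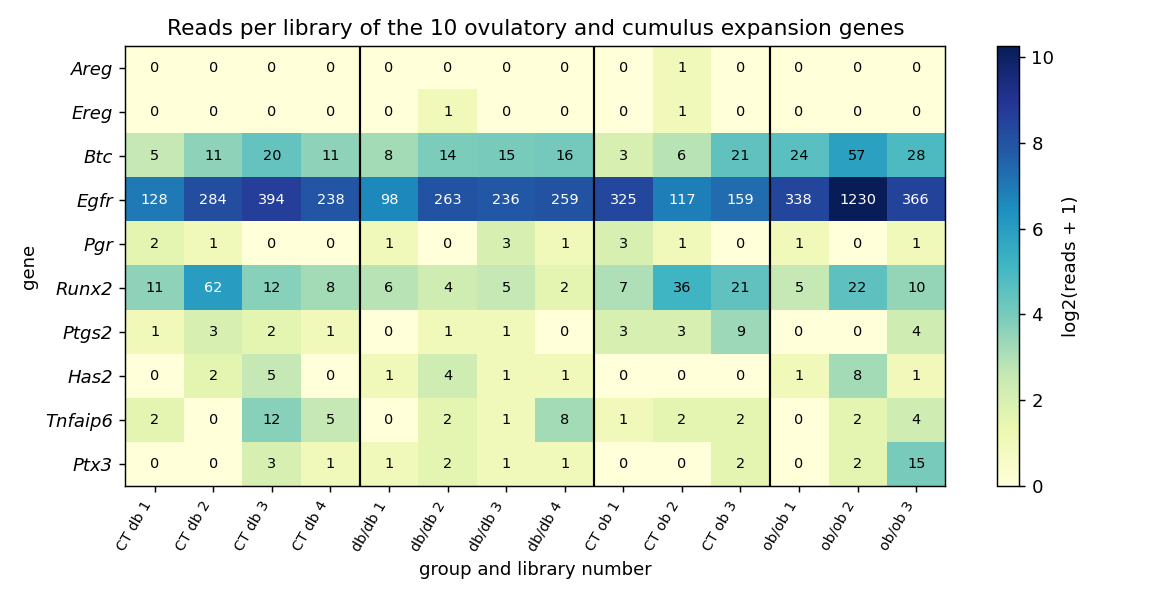
Reads of the 10 genes (rows) in each of the 14 libraries (columns, numbered in table order within a group), with the number of reads printed in each cell and the colour giving log2(reads + 1). Egfr was read in every library (98 to 1230 reads), Areg and Ereg had at most 1 read in any library, and the highest value among Pgr, Ptgs2, Has2, Tnfaip6 and Ptx3 was 15 reads.

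Amphiregulin (Areg, ENSMUSG00000029378) is the EGF-like ligand best known to rise in GCs after the surge. It had 1 read in all, in CT ob library 2, out of 58771659 counts, which is 0.0170 CPM of the pooled total with an exact Poisson 95% interval of 0.000431 to 0.0948. Epiregulin (Ereg, ENSMUSG00000029377) had 2 reads, 1 in db/db library 2 and 1 in CT ob library 2, or 0.0340 CPM (0.00412 to 0.123). Neither ligand was thus detectable in any group at this depth, and in CT db, with 0 reads of both genes in 4 libraries, the limit of 3 reads per library lay between 0.620 and 0.828 CPM. The stretch before the start of Areg is shown because cyclic AMP acts through a short motif that this promoter holds (GRCm39, chr5:91287331-91287450, plus strand, ending 1 base before the annotated gene). Capitals mark the cyclic AMP response element TGACGTCA and a further match to its shorter form, TGACG or CGTCA on the other strand.
Areg promoter: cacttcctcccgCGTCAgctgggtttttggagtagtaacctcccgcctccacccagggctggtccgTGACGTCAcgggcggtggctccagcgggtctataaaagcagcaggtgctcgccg
Promoters of 8 of the 10 genes, 250 bases before to 50 after the start, were matched by symbol in a RefSeq table (GRCm38.p6), all but Ereg and Has2. Only the 250 bases before the start were searched for the motifs. The full element was found in Areg alone among these 8 and in 1.546% of 32851 promoters of the same length. The shorter form, which the full element contains on both strands, was in Areg and Btc and in 17.8% of all promoters. These are matches of letters, and the window of Ptgs2 lies inside the gene as annotated in GRCm39.

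Betacellulin (Btc, ENSMUSG00000082361, chr5:91505120-91550883) was the one ligand of the 3 that was read in every library. It had 5, 11, 20 and 11 reads in CT db, 8, 14, 15 and 16 in db/db, 3, 6 and 21 in CT ob and 24, 57 and 28 in ob/ob. The level was 3.06 ± 1.75 CPM (SD, n = 4) in CT db and 5.23 ± 1.36 (n = 4) in db/db, and 3.08 ± 3.57 (n = 3) in CT ob and 5.16 ± 2.39 (n = 3) in ob/ob. Both mutant means were above those of their controls, but the libraries overlapped in both models. CT ob library 3, with 7.17 CPM, lay above ob/ob libraries 1 and 3, with 4.15 and 3.45 CPM. The log2 fold change was 0.76 in db/db (SE 0.437, 95% interval -0.19 to 1.72, edgeR adjusted p = 0.709) and 0.82 in ob/ob (SE 0.830, interval -1.08 to 2.72, adjusted p = 0.804). Without CT ob library 3 the latter was 2.34, without CT ob library 1 it was 0.29, and neither passed the test.

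The EGF receptor gene (Egfr, ENSMUSG00000020122, chr11:16702198-16868158) had 128, 284, 394 and 238 reads in CT db and 98, 263, 236 and 259 in db/db. It had 325, 117 and 159 reads in CT ob and 338, 1230 and 366 in ob/ob. These were 36.0, 60.5, 108 and 64.9 CPM in CT db and 41.8, 113, 102 and 80.9 CPM in db/db, so that the ranges nearly coincided. In the ob model the values were 62.3, 29.2 and 54.3 CPM in CT ob and 58.4, 170 and 45.0 CPM in ob/ob. A single ob/ob library, number 2, lay above the controls, and the other two lay among them. Means were 67.4 ± 30.02 CPM in CT db (SD, n = 4), 84.5 ± 31.5 in db/db (n = 4), 48.6 ± 17.3 in CT ob (n = 3) and 91.2 ± 68.8 in ob/ob (n = 3). The log2 fold change was 0.32 in db/db (SE 0.333, interval -0.41 to 1.05, edgeR adjusted p = 0.846) and 0.90 in ob/ob (SE 0.507, interval -0.26 to 2.07, adjusted p = 0.677). Without ob/ob library 2 the latter fell to 0.089. With every gene of at least 1 read in the fit, in place of a filter on low counts, the adjusted p in ob/ob was 0.02 and Egfr was among the 359 genes called of 32006, whereas over the other alternatives it was 0.475 or more. That ob/ob library also had the highest level of Btc among the ob/ob libraries (7.89 CPM), 1520 CPM of Inhba against 60.5 and 261 in the other two, and 83.6 CPM of Cyp19a1 against 18.0 and 32.7. Of the 3 cumulus cell markers, Amh (58.6 CPM) and Slc38a3 (29.1) were lowest there among ob/ob libraries, but Npr2 (249) was highest. These 3 summed to 336 CPM, against 1020 and 953 CPM in ob/ob libraries 1 and 3. The 3 mural granulosa cell markers (Lhcgr, Nppc and Cyp11a1) summed to 21.6 CPM, against 67.7 and 41.4 CPM. Inhba encodes a subunit of activin and inhibin and Cyp19a1 the aromatase, both made by GCs of growing antral follicles before the surge. The part of these differences in the Egfr value was not tested.

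**Figure D2:**
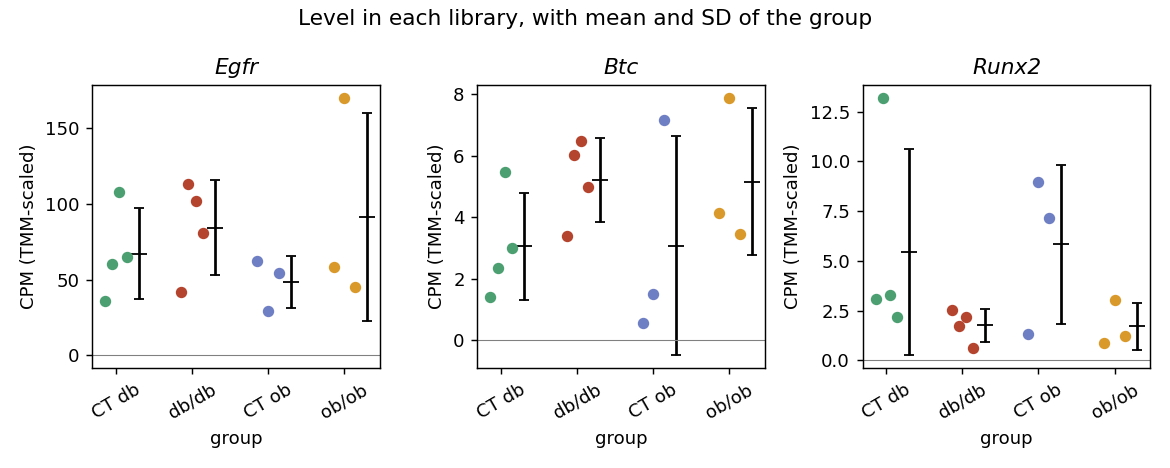
Level in CPM of Egfr, Btc and Runx2, the genes of the list with the most reads, in each library (points, coloured by group), with the group mean and SD as black bars. Egfr stands at 170 CPM in 1 ob/ob library and at 45.0 and 58.4 CPM in the others, Btc overlaps between mutants and controls in both models, and Runx2 is highest in 1 CT db and 2 CT ob libraries.

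The progesterone receptor gene (Pgr, ENSMUSG00000031870), which the surge induces in the follicle wall and which ovulation requires, had 14 reads in all. The reads were 2, 1, 0 and 0 in CT db, 1, 0, 3 and 1 in db/db, 3, 1 and 0 in CT ob and 1, 0 and 1 in ob/ob. No library exceeded the limit of 3 reads, and no fold is given.

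Runx2 (ENSMUSG00000039153, chr17:44806874-45125684, minus strand), a transcription factor of late follicles and of the early corpus luteum, was uneven across the libraries of a group. It had 11, 62, 12 and 8 reads in CT db and 6, 4, 5 and 2 in db/db. In the ob model it had 7, 36 and 21 reads in CT ob and 5, 22 and 10 in ob/ob. The high values were in control libraries, 13.2 CPM in CT db library 2 and 8.98 and 7.17 CPM in CT ob libraries 2 and 3, while no mutant library exceeded 3.05 CPM. In both models, however, mutant and control libraries overlapped. The mean was 5.44 ± 5.20 CPM in CT db (SD, n = 4) against 1.77 ± 0.834 in db/db (n = 4), a difference of -3.68 CPM with an exact permutation p of 0.0571 (two-sided, smallest possible 0.0286), since Runx2 did not pass the filter there. It was 5.83 ± 3.99 CPM in CT ob (n = 3) against 1.71 ± 1.17 in ob/ob (n = 3), a log2 fold change of -1.73 (SE 0.774, interval -3.50 to 0.04, edgeR adjusted p = 0.614). The difference in the db model was -1.09 CPM without CT db library 2, and -4.76 CPM (exact permutation p = 0.0286, the smallest possible) without CT db library 4. Without CT ob library 2 the log2 fold change in ob/ob was -1.25. Exons of Runx2 share 519 bases with the antisense gene Runx2os1 and 362 with Supt3, and whether the counting used strand is not stated.

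Some luteal transcripts, but not all, were highest in the control libraries with the most Runx2. Ptgfr, the prostaglandin F receptor gene through which the corpus luteum regresses, had 13, 90, 19 and 18 reads in CT db and 0, 0, 0 and 1 in db/db. It had 0, 271 and 3 reads in CT ob and 0 in each ob/ob library. The library with the most Ptgfr reads of each control group was thus the one with the most Runx2. Of the other luteal markers, Lhcgr, the LH receptor gene, was at 67.7 CPM in CT db library 2 against 8.78 to 19.6 CPM in the other CT db libraries, and at 19.9 CPM in CT ob library 2 against 1.92 and 4.78 CPM. The 6 luteal markers together (Akr1c18, Ptgfr, Lhcgr, Cyp11a1, Star and Hsd3b1) summed to 213 to 1177 CPM in CT db, 228 to 791 in db/db, 210 to 1360 in CT ob and 225 to 1014 in ob/ob. In CT db, Ptgfr, Lhcgr and Star were highest in library 2, but Akr1c18 (37.3 CPM), Hsd3b1 (1023 CPM) and Cyp11a1 (93.9 CPM) were highest in library 3, against 3.62, 311 and 84.3 CPM in library 2. In CT ob, Hsd3b1 was highest in library 3 and the other 5 in library 2. The sum did not follow Runx2, since it was 502 CPM in CT db library 2 and 1177 CPM in CT db library 3, which had 3.29 CPM of Runx2. All 6 had reads in every CT db library and in 2 of the CT ob libraries, and 5 of 6 in each db/db and ob/ob library and the remaining CT ob library. Lhcgr and Cyp11a1 are also mural granulosa cell markers, and Lhcgr is among the genes of the antral follicle before the surge. The sum of the 3 mural markers was highest of its group in CT db library 2 (167 CPM), CT ob library 2 (231 CPM) and db/db library 1 (229 CPM). These libraries had the most Runx2 of their groups. In ob/ob, the library with the most Runx2 (library 2) had the lowest mural sum (21.6 CPM). The part of luteal or mural cells in the Runx2 values was not tested.

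**Figure D3:**
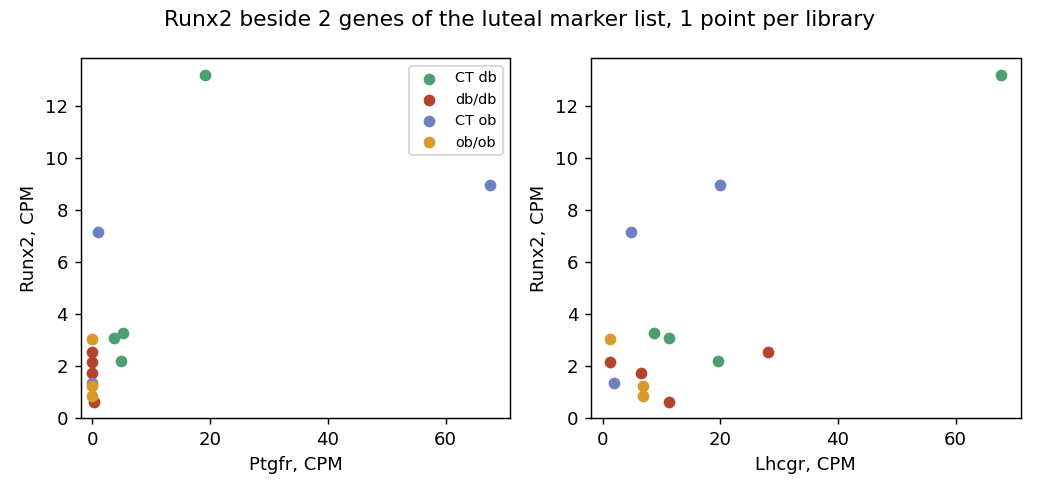
Runx2 (vertical axis, CPM) against Ptgfr (left, CPM) and Lhcgr (right, CPM) in each of the 14 libraries, coloured by group. CT db library 2 stands at 13.2 CPM of Runx2 with 19.2 CPM of Ptgfr, CT ob library 2 at 8.98 with 67.6, and CT ob library 3 at 7.17 with 1.02, while all db/db and ob/ob libraries lie at or below 3.05 CPM of Runx2 and 0.312 CPM of Ptgfr.

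Ptgs2 (ENSMUSG00000032487) encodes the inducible cyclooxygenase, which makes the precursor of prostaglandin E2 for ovulation and cumulus expansion. It had 1, 3, 2 and 1 reads in CT db, 0, 1, 1 and 0 in db/db, 3, 3 and 9 in CT ob and 0, 0 and 4 in ob/ob. The levels were 0.575, 0.748 and 3.07 CPM in CT ob and 0, 0 and 0.492 CPM in ob/ob, so that all CT ob libraries lay above all ob/ob libraries. The difference was -1.30 CPM with an exact permutation p of 0.1, which is the smallest that 3 against 3 libraries allow. Groups that do not overlap were found for 15.8% of the genes tested in this comparison (7.57% with ob/ob lower). Ptgs2 was below the filter on low counts and is not one of these genes, so that the share does not cover genes with so few reads. Without CT ob library 3 the difference was -0.498 CPM, and with all libraries downsampled to 2204686 counts the difference was no longer at the smallest p (0.3). CT ob exceeded CT db by 1.03 CPM with overlap (exact permutation p = 0.0571, smallest possible 0.0286), and by 0.226 CPM without CT ob library 3. Ptgs2 shares 476 exon bases with the antisense gene Ptgs2os.

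Has2 (ENSMUSG00000022367) makes the hyaluronan of the expanded cumulus. It had 0, 2, 5 and 0 reads in CT db, 1, 4, 1 and 1 in db/db, 0 in each of the 3 CT ob libraries and 1, 8 and 1 in ob/ob. The ob/ob libraries, at 0.173, 1.11 and 0.123 CPM, were all above 0, but 2 of them with a single read, and the exact permutation p was 0.1, the smallest possible. Of all genes tested, which leave out Has2 as below the filter, 8.18% were higher in ob/ob without overlap. The ob/ob libraries were the deepest, and after downsampling they had 0, 3 and 0 reads, so that the groups overlapped (exact permutation p = 1). Tnfaip6 (ENSMUSG00000053475) encodes the protein that transfers heavy chains of inter-alpha-trypsin inhibitor onto hyaluronan. Its reads were 2, 0, 12 and 5 in CT db, 0, 2, 1 and 8 in db/db, 1, 2 and 2 in CT ob and 0, 2 and 4 in ob/ob. Ptx3 (ENSMUSG00000027832), the pentraxin that crosslinks these chains, had 0, 0, 3 and 1 reads in CT db, 1, 2, 1 and 1 in db/db, 0, 0 and 2 in CT ob and 0, 2 and 15 in ob/ob. For Tnfaip6 and Ptx3 the libraries overlapped in both models. The libraries in which a matrix gene stood out differed from gene to gene. CT db library 3 was highest in its group for Has2, Tnfaip6 and Ptx3, db/db library 4 and CT db library 4 had more than 3 reads of Tnfaip6 alone among the 3 genes, and db/db library 2 and ob/ob library 2 of Has2 alone. In ob/ob library 3, Ptx3 and Tnfaip6 exceeded 3 reads while Has2 had 1. Areg and Ereg had 0 reads in all of these libraries except db/db library 2, which had 1 read of Ereg. For Tnfaip6 the difference between mutant and control was -0.357 CPM in the db model (exact permutation p = 0.657) and -0.201 CPM in the ob model (p = 0.4, smallest possible 0.1 in this exact test). For Ptx3 it was 0.480 CPM in the ob model (exact permutation p = 0.7) and -0.0891 CPM without ob/ob library 3.

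With genes of low counts removed, 2 of the 10 genes (Btc and Egfr) entered the test of db/db against CT db and 3 (with Runx2) the test of ob/ob against CT ob and the fit of all 14 libraries. None of them was called (edgeR's quasi-likelihood test, Benjamini-Hochberg adjusted p of 0.05 or less) in db/db against CT db, where 0.00884% of 11317 genes were called, nor in ob/ob against CT ob, where 0% of 12425 genes were. Unadjusted p-values under 0.05 were found by edgeR for 7.59% and 8.16% of genes and for 0 of the members in either comparison. DESeq2 called 0.389% and 0.692% of genes and 0 members, and for Runx2 in ob/ob its log2 fold change was -1.75 with an interval that lay below 0 (-3.38 to -0.12, unadjusted p = 0.035, DESeq2 adjusted p = 0.508). Between the controls, where 6.63% of 12586 genes were called (26.9% at an unadjusted p under 0.05, 12.4% by DESeq2), the log2 fold change of CT ob against CT db was -0.47 for Egfr (SE 0.470, edgeR adjusted p = 0.539), -0.07 for Btc (adjusted p = 0.955) and 0.06 for Runx2 (adjusted p = 0.968). Between the mutants, where 0.0159% of genes were called (8.18% at an unadjusted p under 0.05, 0.572% by DESeq2), ob/ob against db/db was 0.11 for Egfr (interval -0.86 to 1.09), -0.02 for Btc (-1.38 to 1.34) and 0.0031 for Runx2 (-1.51 to 1.51). The mutant effect did not differ detectably between the models (edgeR, 0% of 12586 genes called, 8.11% at an unadjusted p under 0.05, 0.572% by DESeq2). The difference of the log2 fold changes was 0.58 for Egfr (interval -0.81 to 1.97), 0.06 for Btc (-1.91 to 2.02) and -0.05 for Runx2 (-2.40 to 2.29). These intervals leave room for changes of more than 1 log2 unit in either direction for Btc and Runx2. The value for Runx2 rests on single libraries, being -0.9998 without CT db library 2 and 0.43 without CT ob library 2.

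**Figure D4:**
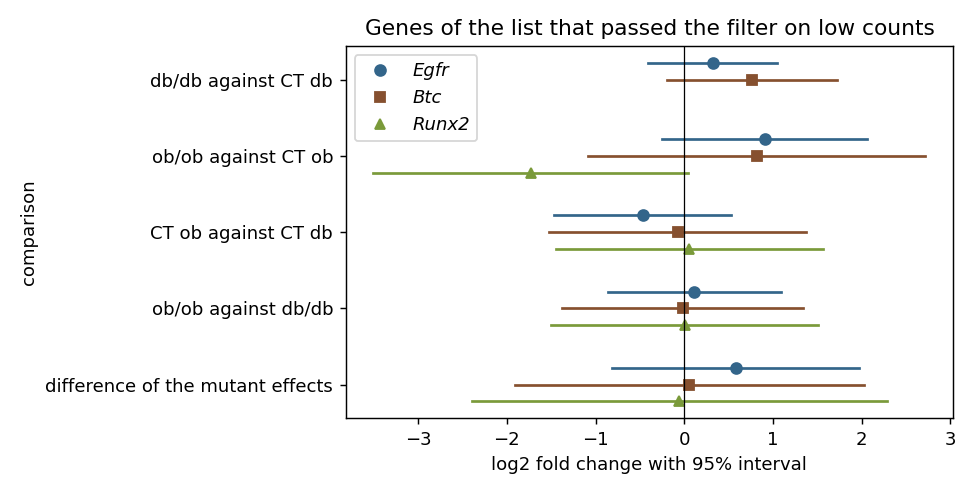
Log2 fold change (points) with its 95% interval (lines) for Egfr, Btc and Runx2 in the 5 comparisons, from edgeR. All intervals include 0, the nearest to excluding it being Runx2 in ob/ob against CT ob (-3.50 to 0.04), and Runx2 is not shown for db/db against CT db because its counts there were below the filter.

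Genes that work with these 10 were read in lists by role. Calls are those of edgeR, and in the comparisons of mutants with controls DESeq2 called Ptgfr and Sfrp4 in db/db and Vcan in ob/ob among the genes of these lists. Among 10 other genes of the EGF family and its shedding, Adam17, the protease that releases the ligands, was at 194 CPM in CT db, 193 in db/db, 136 in CT ob and 190 in ob/ob (means). In db/db 0 of the 6 genes tested were called (median log2 fold change 0.17, against 0.0101 over all genes), and in ob/ob 0 of 6 (median -0.26, against -0.0360). The ligand Hbegf was at 14.1 CPM in CT db and 25.2 in db/db with no overlap (log2 fold change 0.84, SE 0.270, edgeR adjusted p = 0.527), where 4.14% of all genes tested did not overlap. In ob/ob it was at 9.27 CPM against 9.53 in CT ob. Erbb2, the receptor that pairs with EGFR, was higher in CT ob (122 CPM) than in CT db (38.9 CPM), with a log2 fold change of 1.66 (SE 0.266, adjusted p = 0.00668 by edgeR), and was at 73.1 CPM in ob/ob (-0.75 against CT ob, adjusted p = 0.619).

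Of 11 genes of prostaglandin synthesis, transport and reception, 6 were tested in each model and edgeR called 0 (median log2 fold change -0.0775 in db/db and -0.29 in ob/ob). The prostaglandin E synthase genes Ptges and Ptges3 were far above Ptgs2 in reads. Ptges was at 236 CPM in CT db, 283 in db/db, 199 in CT ob and 231 in ob/ob, and Ptges3 at 408, 367, 292 and 324 CPM in that order. Ptger2, the prostaglandin E2 receptor gene that cumulus expansion requires, was at 13.2, 6.98 and 5.46 CPM in CT ob and 3.28, 2.63 and 2.22 CPM in ob/ob, without overlap (log2 fold change -1.67, SE 0.472, edgeR adjusted p = 0.539). Of all genes tested in ob/ob against CT ob, 15.8% did not overlap, 7.57% being lower in ob/ob. In the db model Ptger2 was level, at 10.7 CPM in CT db and 10.6 in db/db (95% interval of the log2 fold change -1.13 to 1.13). Ptgfr, described above, did not pass the test in db/db by edgeR (-5.96, SE 0.975, adjusted p = 0.221) but was called by DESeq2 (-6.13, SE 1.2, adjusted p = 0.00116).

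Of 10 other genes of the hyaluronan matrix, 6 were tested in db/db and 8 in ob/ob, and edgeR called 0 (median 0.19 and -0.58). Vcan, which encodes the proteoglycan versican, was at 259, 247, 246 and 177 CPM in CT db and 234, 183, 260 and 76.2 CPM in db/db. It was at 576, 480 and 496 CPM in CT ob and 237, 344 and 281 CPM in ob/ob, all ob/ob libraries being below all CT ob libraries (log2 fold change -0.85, SE 0.204, edgeR adjusted p = 0.539). DESeq2 called this difference (-0.85, SE 0.221, adjusted p = 0.0277). Groups without overlap and with ob/ob lower were found for 7.57% of all genes tested in ob/ob against CT ob. Vcan rose in CT ob against CT db (1.16, SE 0.294, adjusted p = 0.0344 by edgeR). Hmmr, a hyaluronan binding protein also of the mitotic spindle, lay between 85.2 and 98.0 CPM in the 4 group means, and Hyal2, a hyaluronidase, between 55.4 and 81.3 CPM.

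Of 19 further genes induced by the surge or by PGR, 14 were tested in each model, with 1 called in db/db and 0 in ob/ob. Sfrp4, a secreted WNT modulator of the late follicle and corpus luteum, fell in db/db and was the only gene that edgeR called there, while DESeq2 called 44. It was at 20.5, 26.6, 32.9 and 26.2 CPM in CT db and 1.28, 0.430, 1.73 and 2.19 CPM in db/db (log2 fold change -4.16, SE 0.344, edgeR adjusted p = 0.000644). In the ob model CT ob library 2 held 198 CPM against 1.73 and 4.09 CPM in the other CT ob libraries and 0.138 to 1.90 CPM in ob/ob (-6.33, SE 1.844, adjusted p = 0.539 by edgeR). The medians of the list were -0.0132 in db/db and 0.17 in ob/ob. The highest genes of this list were Ctsl, the lysosomal protease cathepsin L, with means of 3199 to 4719 CPM, and Rgs2, a regulator of G protein signalling, with 953 to 1553 CPM. Of the ERK cascade and its immediate targets 7 genes were tested in db/db and 8 in ob/ob, and 0 were called (median 0.24 and -0.16). Egr1, an immediate early gene, spread from 50.9 to 776 CPM within CT db, 102 to 693 CPM within db/db, 24.4 to 628 CPM within CT ob and 36.6 to 518 CPM within ob/ob. Spry2, an inhibitor of the cascade, was at 17.1 CPM in CT db and 38.1 in db/db with overlap (log2 fold change 1.15, SE 0.327, edgeR adjusted p = 0.457), and at 11.05 CPM in CT ob and 19.7 in ob/ob (0.84, SE 0.404, adjusted p = 0.638). Map2k1, a kinase of the cascade, had group means of 265 to 329 CPM.

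The 13 genes of the antral follicle before the surge had reads in every library. Their summed level was 7269 to 14006 CPM in CT db, 8084 to 15109 in db/db, 6465 to 12937 in CT ob and 10095 to 18552 in ob/ob. The 8 genes of the ERK list had reads in every library too. Of the 19 further genes induced by the surge or by PGR, 14 to 19 had reads in a library, with summed levels of 4395 to 8900 CPM. Inha, the inhibin alpha subunit gene, had means of 4513, 5141, 4697 and 6695 CPM in CT db, db/db, CT ob and ob/ob, and Ccnd2, the cyclin of GC proliferation, 1026, 1313, 1673 and 1753 CPM. All 13 were tested in both models and 0 were called (median 0.18 in db/db and 0.45 in ob/ob, against 0.0101 and -0.0360 over all genes). In ob/ob against CT ob, 3 of the 13 did not overlap between the groups, beside 15.8% of all genes tested. Fshr, the follicle stimulating hormone receptor gene, was at 36.4, 120 and 91.1 CPM in CT ob and 135, 180 and 198 CPM in ob/ob without overlap (log2 fold change 1.05, SE 0.393, edgeR adjusted p = 0.584). It fell in CT ob against CT db (-1.72, SE 0.349, adjusted p = 0.0163 by edgeR). Cyp19a1 was at 10.5, 17.7 and 16.4 CPM in CT ob and 18.0, 83.6 and 32.7 CPM in ob/ob, also without overlap (1.59, SE 0.534, edgeR adjusted p = 0.561), and Nr5a2, the nuclear receptor LRH-1, at 248 CPM in CT db and 355 in db/db (0.51, SE 0.251, adjusted p = 0.675 by edgeR).

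**Figure D5:**
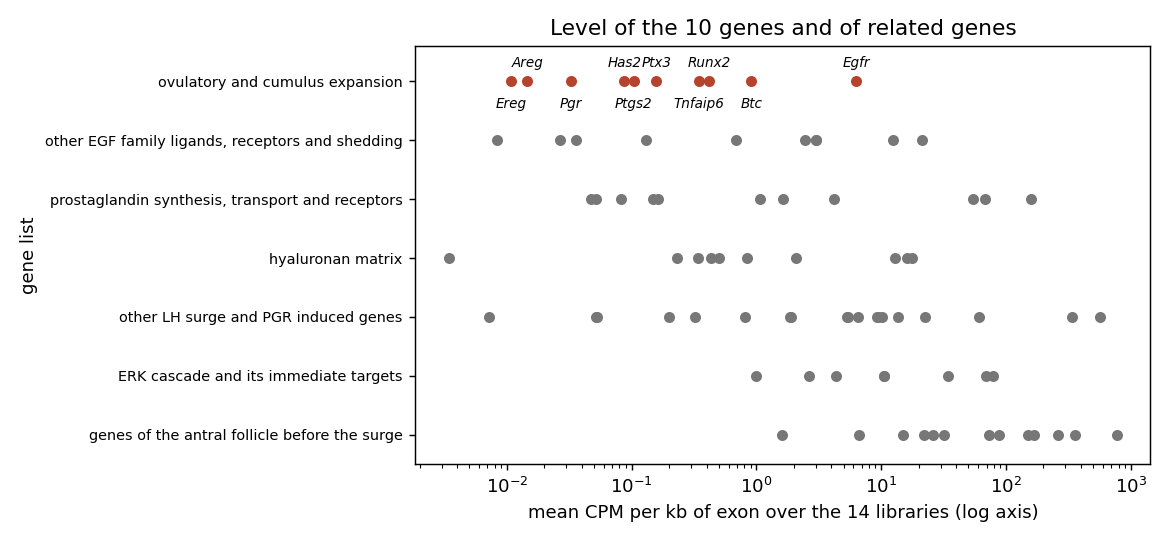
Mean level over the 14 libraries in CPM per kb of exon (log axis) of the 10 genes (top row, red, named) and of the genes of the 6 lists by role (grey). Among the 10 genes only Egfr, at 6.35, lies above 1 CPM per kb, whereas all genes of the antral follicle before the surge do. The other lists hold genes on both sides of 1 CPM per kb.

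The genes whose log2 CPM followed Egfr most closely over the 14 libraries, among 12585 genes searched, were Kcnma1 (Pearson r 0.932, Spearman rho 0.93), Epha4 (0.926 and 0.895) and Reep3 (0.918 and 0.943). With ob/ob library 2 and CT ob library 2 left out, the libraries farthest from the median of Egfr, r was 0.90, 0.857 and 0.892. For Btc they were Atp9a (r 0.961, rho 0.899), Atraid (0.948 and 0.943) and Bst2 (0.894 and 0.864), and without CT ob library 1 and CT db library 1, r was 0.911, 0.925 and 0.758. The libraries share group and depth as well as these genes, the genes were picked as the highest of many, and the values are a description.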

How the data were processed

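Polyadenylated RNA of GCs was sequenced in 14 libraries. The authors deposited raw counts per gene, without normalization. Per the study's methods, reads were trimmed with cutadapt, mapped to GRCm39 with STAR and counted with featureCounts, whereas the submitters' processing notes name Trim Galore 0.6.2, HISAT2 2.1.0 and GRCm38, and this difference was not settled. Strand setting and treatment of multimapping reads are not stated, so that overlapping genes can share reads. The columns were assigned to the 4 groups from the study's list of column names, and libraries are numbered in table order. No 2 libraries were identical, and whether each came from a separate mouse is not given in the labels, so that p-values measure the spread between these libraries.

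Counts were analysed with edgeR 4.0.16 in R 4.3.3 (TMM, filterByExpr at its settings min.count 10 and min.total.count 15, quasi-likelihood test). Benjamini-Hochberg adjustment covered all genes tested, and an adjusted p of 0.05 or less was called. Each mutant was compared with the controls of its own model, and 1 fit of all 14 libraries served the other 3 comparisons. Genes under the filter with more than 3 reads in any library were compared in CPM by exact two-sided permutation tests without adjustment. Levels per kb used the exon length of GENCODE M39 (GRCm39), in which 98.8% of identifiers were found. Intervals of edgeR fold changes used the t quantile of the fit, with the SE derived from the fold change and the F statistic. Those of DESeq2 used its own SE and the normal quantile, which gives narrower intervals for the same SE. Alternatives were DESeq2 1.42.0, RLE or no scaling factors, other filters, 1 fit of all libraries, downsampling, and leaving out libraries, and those named by the library number were chosen after seeing the data, as were all alternatives of CPM differences. Simulated counts with known changes served to check the tests.

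The 10 genes and all lists were chosen with earlier results of these data known. From each list by role, the 2 genes with the highest level, every gene called and the gene with the smallest p in each mutant comparison were named, and for Egfr and Btc the 3 genes with the highest correlation. No fold is given for genes at the limit of detection, and other measurements of the study were not analysed here.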

Additional observations from a re-analysis of the deposited data

Results flagged for a closer look

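In groups of 4 libraries, a library was singled out when its gap to the nearest other library, divided by the range of the group, exceeded Dixon's 95% critical value. For normally distributed values chance gives this in about 1 of 20 groups. CPM from few reads need not be so distributed, and the rate for them was not tested. Of 10 such groups examined (5 genes of the list in CT db and db/db), 2 did so. Runx2 in CT db library 2 was at 13.2 CPM (62 reads), with the next library at 3.29 CPM (ratio 0.899). Of 6 luteal markers, Ptgfr, Lhcgr and Star were also highest there, whereas Akr1c18, Hsd3b1 and Cyp11a1 were highest in CT db library 3, and the summed level was 502 CPM against 1177 CPM in library 3. The sum of the 3 mural granulosa cell markers was highest of CT db in library 2 (167 CPM). The part of these markers in the Runx2 value was not tested. Has2 in db/db library 2 was at 1.72 CPM, with the next library at 0.433 CPM (ratio 0.914), and rests on 4 reads.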

How the results depend on the processing

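No paired analysis was possible because the columns of the table carry no replicate numbers of the labels, and the replicate block was not run. No gene of the list was called in any comparison under any alternative, apart from 1 in ob/ob against CT ob without a filter on low counts (Egfr, log2 fold change 0.98, edgeR adjusted p = 0.02). Without a filter the number of genes called was 270 in db/db, 359 in ob/ob, 1727 between controls, 535 between mutants and 329 for the difference of the mutant effects, and with DESeq2 it was 44, 86, 1563, 72 and 72, against 1, 0, 834, 2 and 0. Between controls it was 261 with library totals only. Estimates near 0 changed sign. Btc between controls was 0.14 and its difference of effects -0.16 without CT db library 2 and CT ob library 2, the latter was -0.0558 after downsampling, and Btc between mutants was 0.0033 with library totals only and 0.0340 without a filter. Runx2 between mutants was -0.0130 with DESeq2 and -0.0045 without the same 2 libraries, and its difference of effects was 0.0463 without a filter and 0.12 after downsampling. After downsampling the CPM difference of Tnfaip6 in ob/ob was 0.274 and that of Ptgs2 between mutants 0.0492. The cause was not tested.

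With each library left out in turn, no count of called genes of the list changed from 0. Log2 fold changes ranged from -1.59 to 0.46 for Btc between controls, -0.47 to 0.20 between mutants and -0.48 to 1.58 for its difference of effects, from -0.71 to 0.44 for Egfr between mutants and -0.24 to 0.91 for its difference of effects, and from -0.43 to 1.002, -0.69 to 0.30 and -0.9998 to 0.43 for Runx2 in that order. CPM differences ranged from -0.0592 to 0.581 for Has2 in db/db and -0.575 to 0.0774 between mutants, -0.874 to 0.306 for Tnfaip6 in db/db, -0.0891 to 0.834 for Ptx3 in ob/ob and -0.369 to 0.554 between mutants, and -0.216 to 0.0304 for Ptgs2 between mutants. The other alternatives kept direction and side of the threshold in 171 cases, as did 285 cases with a library left out. With 3 reads at 0.359 to 1.36 CPM, differences in Areg, Ereg and Pgr were not measurable.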
